A study of Sus scrofa with 12 samples.

Results

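The genes described here encode proteins with which the gut surface limits bacteria: antimicrobial peptides and lectins, lysozyme, an iron-withholding lipocalin, mucosal scavenger and antibody receptors, a secreted phospholipase, and the enzymes that make nitric oxide and hydrogen peroxide. Of 10 listed gene symbols, 8 were found by gene name among the 17049 different names of the expression table (LYZ, LEAP2, REG3G, LCN2, DMBT1, PLA2G2D, DUOX2 and NOS2), and rows that share a name were summed. PIGR was present only under its Ensembl identifier, ENSSSCG00000015657. It is given beside the 8 genes but is not counted among them. DUOXA2 was not matched by name or identifier and was not analysed here.

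Jejunum of 12 piglets was profiled by RNA-seq in 4 groups of 3 (n = 3 in each group throughout). Piglets of 21 days were taken at weaning and piglets of 28 days were taken 7 days later, and their mothers ate either a basal diet (W_Con and PW_Con) or the same diet with 300 mg/kg resveratrol, a plant polyphenol, through gestation and lactation (W_Res and PW_Res). The study paper covers the control litters only and gives Yorkshire × Duroc animals, whereas the public records name Landrace boars as the semen source. No sow, litter or processing day is given per library, piglets were cross-fostered within a diet, and weaning coincided with 7 more days of age, so that diet and litter, and weaning and age, cannot be told apart.

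The inner surface of the small intestine is a single sheet of epithelium that keeps bacteria at a distance with secreted proteins. Some of these are made constantly by absorptive or Paneth cells, and others are switched on by microbial products and by cytokines such as interferon gamma and interleukin 22. Weaning replaces milk, which carries maternal antibody and lysozyme, with solid feed, and the piglet then relies on its own defences.

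Expression is given as FPKM, fragments scaled to transcript length and to the library's mapped reads, a per-length scale on which genes can be compared. The summed FPKM of named genes was 292848 to 312058 per library, and rows without a gene name held 5.48% to 8.47% of a library's FPKM. How many reads lie behind a gene is unknown. Pearson's r between replicates over 12886 gene names was 0.921 to 0.954 in W_Con, 0.935 to 0.947 in PW_Con, 0.881 to 0.911 in W_Res and 0.929 to 0.961 in PW_Res. Absorptive enterocyte markers were high in all 12 libraries, with sums of 4463 to 30625 FPKM. Distal markers, in contrast, divided the jejunum libraries. FABP6, the ileal bile acid binding protein, was at 1231 to 24110 FPKM in 7 libraries (W_Con 1 and 2, W_Res 3, PW_Con 1 to 3 and PW_Res 1) and at 1.70 to 128 FPKM in the other 5. The summed smooth muscle markers were 1533 FPKM in W_Res 1 and 3365 in W_Res 2, against 95.7 to 387 in the other 10 libraries. In such bulk tissue, fewer cells of a type and less RNA per cell cannot be told apart.

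By the mean over 12 libraries, DMBT1 was the most abundant at 726 FPKM, followed by LYZ at 306, REG3G at 273, PIGR at 122, LEAP2 at 40.6, NOS2 at 35.7, PLA2G2D at 15.1, LCN2 at 1.76 and DUOX2 at 1.40. DMBT1 stood at the 99.7th percentile of all names and LCN2 at the 41.8th. The spread between piglets was wide for most. DMBT1 differed 24.6-fold and LYZ 73.9-fold between the lowest and the highest library, and each pair of neighbours in this order overlapped in range over the 12 libraries.

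**Figure D1:**
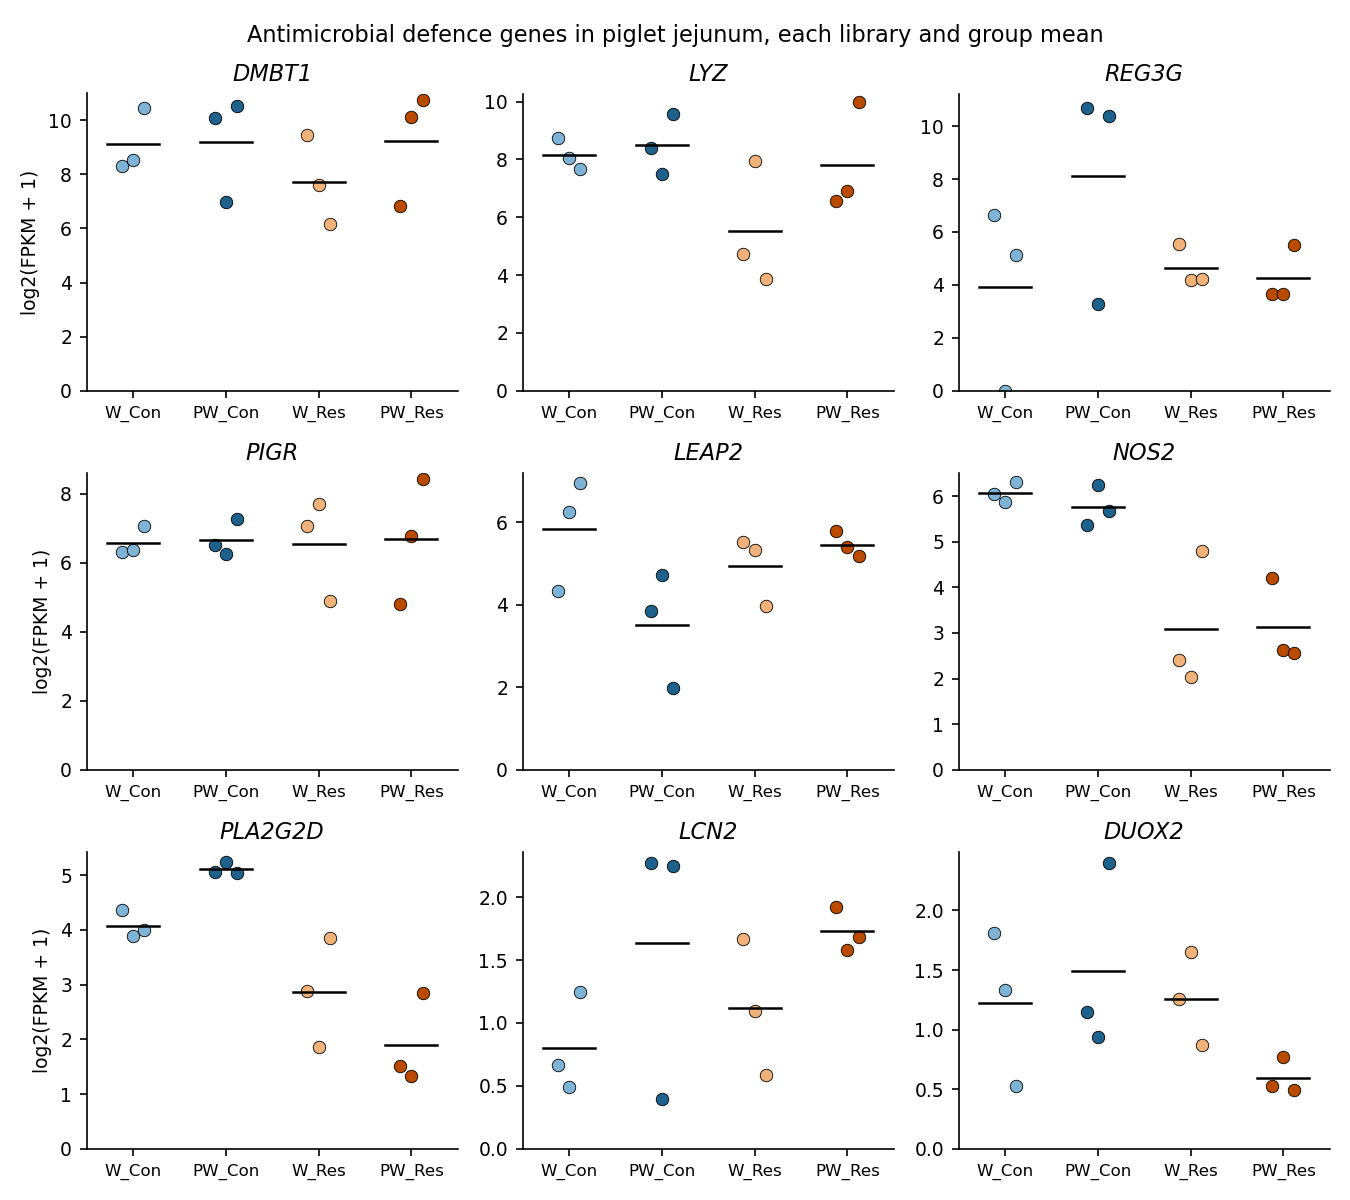
Each panel plots log2(FPKM + 1) of a gene (y axis) for the 12 libraries in the groups W_Con, PW_Con, W_Res and PW_Res (x axis), with points for single piglets and a line at the group mean. NOS2 and PLA2G2D were higher in every control-litter library of an age than in any resveratrol-litter library of that age, whereas DMBT1 and LYZ overlapped between the 4 groups.

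Group comparisons used limma models of log2(FPKM + 1), restricted to names averaging 0.5 FPKM or more across the fitted libraries. All 8 genes passed this filter in every comparison. A call follows the study's standard, an unadjusted P under 0.05 with a log2 fold change beyond 1 in either direction, and the Benjamini-Hochberg adjusted p over all names tested stands beside it. "Rose" and "fell" below mean that this standard was met. In the 4 comparisons of 2 groups none of the 8 genes had a limma adjusted p under 0.05, while 2, 1, 3 and 4 had an unadjusted P under 0.05 (weaning in control and in resveratrol litters, diet at 21 and at 28 days), against 17.7%, 13.3% and 13.3% of all names and 1262 of 12380 names at 28 days. The 4 comparisons share libraries, each group entering 2 of them, so their values are set side by side and are not independent.

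NOS2, the inducible nitric oxide synthase whose product is toxic to microbes, had the largest difference between diets of the 8 genes when both ages were averaged. It was at 65.2, 57.3 and 78.0 FPKM in W_Con and at 40.6, 74.8 and 50.3 in PW_Con. In resveratrol litters it was at 4.32, 3.10 and 26.7 FPKM in W_Res and at 17.5, 5.16 and 4.87 in PW_Res. The highest resveratrol-litter value, W_Res 3, lay below the lowest control-litter value, PW_Con 1. At 21 days NOS2 fell by 2.99 on the log2 scale in resveratrol litters (SE 0.66, limma adjusted p = 0.317), a level 7.96-fold lower. At 28 days it fell by 2.64 (SE 0.47, limma adjusted p = 0.222), a level 6.23-fold lower. In the linear model of the Ballgown type neither met the standard, at -2.15 (SE 1.02) and -1.22 (SE 0.58). Between 21 and 28 days its log2 fold change was -0.31 (SE 0.25) in control and 0.05 (SE 0.76) in resveratrol litters, and neither met the standard. Without W_Res 1 and W_Res 2, the libraries high in smooth muscle markers, the latter was -1.67 (limma adjusted p = 0.212), which met it. W_Res is then W_Res 3 alone, assumed to vary like the other groups, which supply the spread.

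PLA2G2D, a secreted phospholipase A2 best known from dendritic cells and macrophages of lymphoid tissue, separated the control groups from each other and from the resveratrol litters. It was at 19.6, 13.7 and 14.9 FPKM in W_Con and at 32.5, 36.7 and 32.0 in PW_Con. With maternal resveratrol the values were 6.35, 2.64 and 13.4 FPKM in W_Res and at 1.87, 1.51 and 6.17 in PW_Res. All 3 PW_Con libraries lay above all 3 W_Con libraries, which in turn lay above every resveratrol-litter library, with W_Res 3 only just below W_Con 2. PLA2G2D was 9.30-fold lower in PW_Res than in PW_Con (log2 fold change -3.22, SE 0.38, limma adjusted p = 0.111). At 21 days the difference was smaller, with a log2 fold change of -1.21 (SE 0.47, limma adjusted p = 0.360). After weaning it rose in control litters by 1.04 (SE 0.18, limma adjusted p = 0.117). PLA2G2D is on the study's own list of changed genes, which was drawn up on these 6 control libraries, so this rise is not independent evidence. It was just short of the 2-fold limit without W_Con 2 (0.94), W_Con 3 (0.99) or PW_Con 2 (0.98). With the log2 sum of distal small intestine markers as a covariate over all 12 libraries it was 0.86 (SE 0.50, limma adjusted p = 0.411), with an unadjusted P above 0.05. The 21-day diet difference missed the standard without W_Con 1 (-1.07), W_Con 3 (-1.26), W_Res 1 (-1.22) or W_Res 2 (-0.71), while the 28-day difference met it without any single library (-3.69 to -2.93). In resveratrol litters the change was -0.97 (SE 0.57, limma adjusted p = 0.489), and -1.47 without W_Res 2 or -1.44 without PW_Res 3, which met the standard. The difference between both weaning effects was -2.00 (SE 0.66, limma adjusted p = 0.264). B cell and follicle markers, of which 8 of 10 were matched, differed with diet in the same direction as PLA2G2D at 28 days and not at 21 days. Their sum was 150 to 160 FPKM in W_Con, 191 to 310 in PW_Con, 177 to 245 in W_Res and 161 to 212 in PW_Res, and 7 of 7 tested had lower values in PW_Res than in PW_Con (1 at the standard, median log2 fold change -1.30). At 21 days 2 of 4 tested had lower values in W_Res (median 0.11). Their part in the PLA2G2D result was not tested.

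Because both genes were lower at both ages, the diet effect was also averaged over the ages in a fit of all 12 libraries, a comparison added after the data had been examined. It was chosen for these values, so the counts and p-values of both genes in it restate them and are no independent support. In it, 3 of the 8 genes met the standard, all lower in resveratrol litters, against 0.939% of 12886 names, and 2 of the 8 had an adjusted p under 0.05, against 0.14% of names. These were PLA2G2D (log2 fold change -2.22, SE 0.33, limma adjusted p = 0.0365) and NOS2 (-2.82, SE 0.45, limma adjusted p = 0.0417). In the ranking of all names by P they stood 9th and 16th. The third gene, LYZ, reached -1.66 (SE 0.75, limma adjusted p = 0.406), and it missed the standard in 9 of 12 fits that left out a library (-2.27 to -1.25 over the 12). PLA2G2D and NOS2 kept the standard in all 24 alternative settings, with adjusted p from 0.0108 to 0.131 for PLA2G2D and from 0.00473 to 0.163 for NOS2. Without W_Res 1 and W_Res 2, the libraries high in smooth muscle markers, the averaged log2 fold change was -1.72 for PLA2G2D and -1.96 for NOS2, with adjusted p of 0.0641 and 0.0787. With those 2 libraries left out, W_Res is the single library W_Res 3, the highest of its group for both genes, with the spread taken from the other groups. The difference at 21 days then no longer met the standard, at -1.28 (limma adjusted p = 0.326) for NOS2 and -0.23 (limma adjusted p = 0.848) for PLA2G2D.

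Genes most like NOS2 over the 12 libraries were FLYWCH2 (r = 0.96), GZMA (r = 0.93), which encodes a granzyme of cytotoxic lymphocytes, and GBP1 (r = 0.93), an interferon-induced GTPase. GZMA was at 116 to 233 FPKM in W_Con and 81.7 to 116 in PW_Con, and at 14.8 to 48.9 in W_Res and 20.7 to 40.3 in PW_Res, so that the litters of both diets did not overlap. A list of cytotoxic and T lymphocyte markers, written after these values were seen, had 14 of its 16 genes in the table. Its summed level was 294 to 471 FPKM in W_Con, 274 to 316 in PW_Con, 94.7 to 166 in W_Res and 75.4 to 202 in PW_Res. Averaged over both ages, all 13 of its tested genes were lower in resveratrol litters and 7 met the standard, against 0.939% of 12886 names. GZMA, whose values were seen first, is among these 7. The median log2 fold change was -1.03 against 0.03 for all names. NOS2 followed this sum over the 12 libraries (r = 0.91, and 0.61 for deviations from group means), and PLA2G2D did so less closely (r = 0.63 and -0.24). GZMA, which prompted the list, made up 15.6% to 49.4% of the sum, so that these correlations partly restate its likeness to NOS2. Without GZMA the other 13 genes summed to 179 to 238 FPKM in W_Con, 158 to 234 in PW_Con, 79.9 to 117 in W_Res and 54.7 to 162 in PW_Res, so that the groups overlapped at 28 days, and the correlation with NOS2 was 0.84 (0.53 for deviations from group means). The part of lymphocyte content in the lower NOS2 was not tested.

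NOS2 also moved with distal small intestine markers, a list of bile acid handling genes of which 5 of 6 were matched. Their sum ranged from 73.2 to 8265 FPKM in W_Con, 6742 to 9961 in PW_Con, 53.7 to 6383 in W_Res and 95.2 to 24559 in PW_Res. In the 7 libraries with FABP6 at 1231 to 24110 FPKM, that gene made up most of the sum. Correlations with the sum, and the covariate made from it, therefore largely follow FABP6, which the paper reports as increased by weaning. The 2 resveratrol-litter libraries with high distal sums, W_Res 3 and PW_Res 1, had the most NOS2 of the 6 resveratrol-litter libraries. With the log2 distal sum as a covariate over all 12 libraries, the diet effect on NOS2 averaged over ages was -2.33 (SE 0.36), against -2.82 without it. Its limma adjusted p was 0.0693, against 0.0417 without the covariate. By age the effect was -2.77 at 21 days and -1.90 at 28 days, against -2.99 and -2.64 without the covariate. W_Con 3 had a distal sum of 73.2 FPKM and 78.0 FPKM of NOS2, the highest NOS2 of all. The part of gut position in the lower NOS2 was not tested. Macrophage and dendritic cell markers, with 7 of 11 matched and sums of 222 to 794 FPKM, correlated with PLA2G2D at r = -0.02 and with NOS2 at r = -0.30. C1QC at 133 to 436 FPKM and C1QA at 36.3 to 320 held most of this sum, so both correlations mainly describe these genes. AIF1 was at 12.8 to 29.2 FPKM and CD163 at 0.0244 to 0.693. For diet at 28 days 4 of 6 tested had lower values in PW_Res, 0 at the standard (median log2 fold change -0.45). AIF1 was lower there without overlap, at 12.8 to 13.7 FPKM in PW_Res and 18.5 to 26.4 in PW_Con. At 21 days 4 of 6 had lower values in W_Res (median -0.04). Their part in the PLA2G2D result was not tested.

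**Figure D2:**
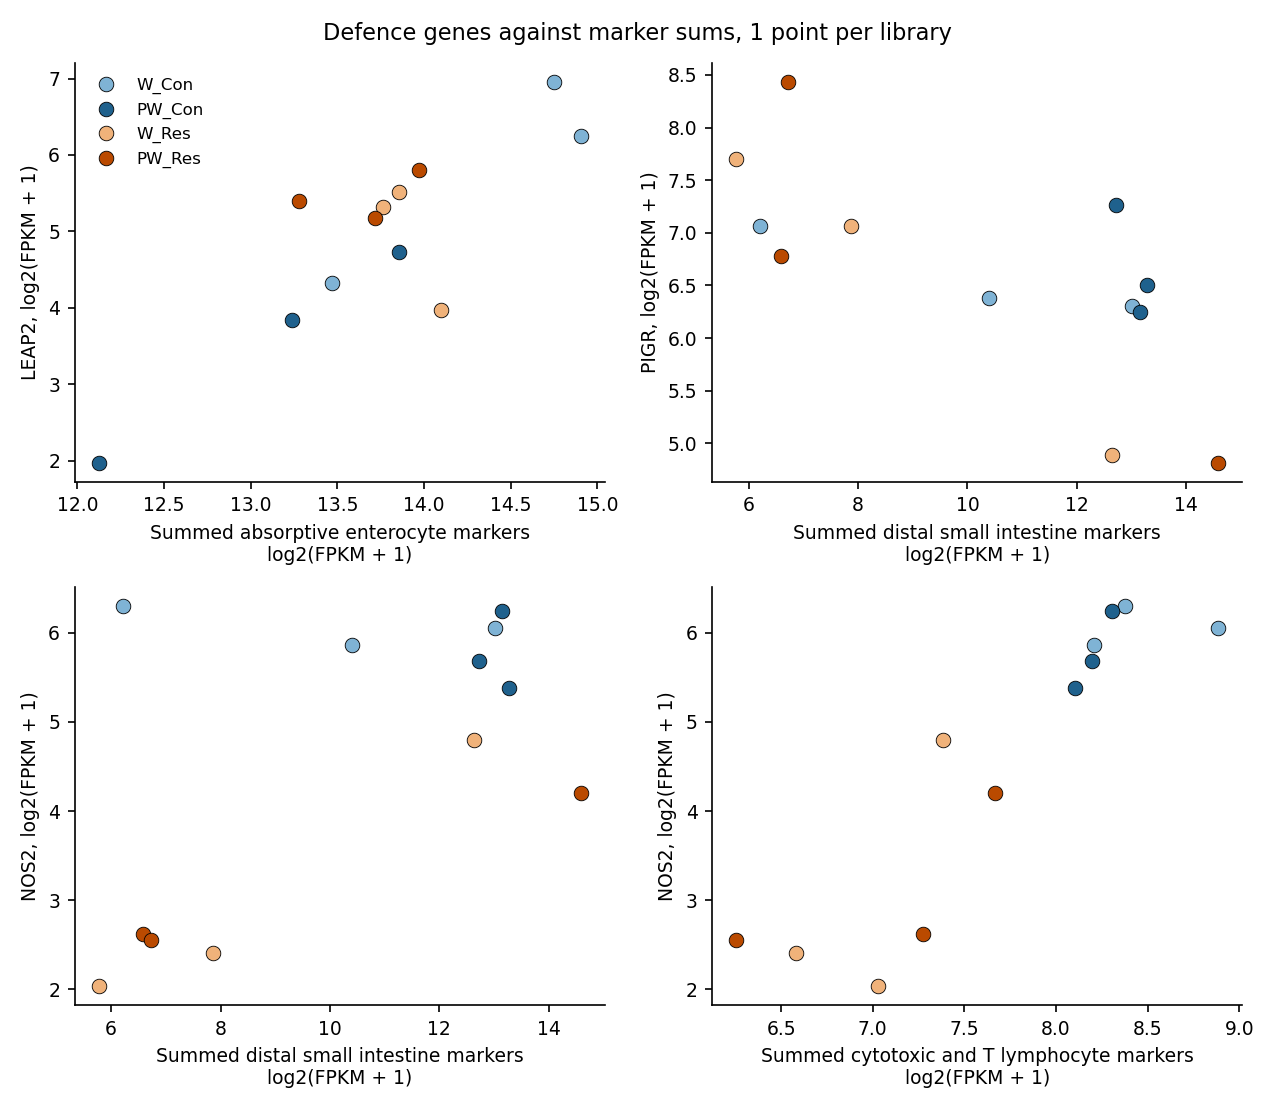
Each panel plots 1 point per library, with log2(FPKM + 1) of a defence gene on the y axis and log2(summed FPKM + 1) of a marker list on the x axis, coloured by group. LEAP2 was higher where absorptive enterocyte markers were higher (r = 0.85), PIGR was lower where distal markers were higher (r = -0.71), and NOS2 lay low in all 6 resveratrol-litter libraries, which also had the 6 lowest lymphocyte marker sums.

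DUOX2, the dual oxidase that releases hydrogen peroxide at the apical surface, was the least abundant. It was at 2.50, 1.52 and 0.441 FPKM in W_Con and at 1.21, 0.911 and 4.28 in PW_Con. The resveratrol litters gave 1.38, 2.14 and 0.833 FPKM in W_Res and 0.438, 0.710 and 0.405 in PW_Res. All 3 PW_Res libraries lay below all W_Res and all PW_Con libraries, while the control groups overlapped. Its log2 fold change was -0.66 after weaning in resveratrol litters (SE 0.28, limma adjusted p = 0.370) and -0.90 for diet at 28 days (SE 0.38, limma adjusted p = 0.490), both with an unadjusted P under 0.05 but short of the 2-fold limit. At such levels the pseudocount of 1 compresses differences, and with 0.1 both met the standard, at -1.27 and -1.57. The unadjusted P was above 0.05 in 12 of 18 alternative settings for the weaning effect and in 11 of 18 for the diet effect, among them 5 and 4 of the 6 fits that left out a library. The weaning effect ranged from -1.27 to -0.06 over its settings, the latter in the linear model of the Ballgown type. The diet effect ranged from -1.57 to -0.44, the latter without PW_Con 3, and met the standard without PW_Con 1 (-1.07) or PW_Con 2 (-1.18). DUOX2 and its paralogue DUOX1 are similar in sequence, and reads that fit both could have been split between them. Within groups DUOX2 went down as absorptive enterocyte markers went up (r = -0.84). Its closest genes were ARL6IP6 (r = 0.94), TMSB10 (r = 0.93) and OTUD6B (r = 0.92).

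LEAP2, a cationic peptide of liver and small intestine that is also an antagonist of the ghrelin receptor, had weaning effects that differed between the litters of both diets. It was at 19.0, 74.7 and 123 FPKM in W_Con and at 13.4, 25.5 and 2.92 in PW_Con. Litters of resveratrol-fed sows had 44.6, 39.0 and 14.6 FPKM in W_Res and at 54.6, 41.1 and 35.0 in PW_Res. W_Con 1 lay below PW_Con 2, so the control groups overlapped, while all PW_Res libraries lay above all PW_Con libraries. After weaning LEAP2 fell in control litters by 2.32 on the log2 scale (SE 0.85, limma adjusted p = 0.228). LEAP2 is likewise on the study's list of genes changed in these libraries, and this fall is not independent evidence. It no longer met the standard without W_Con 2 (-2.12), W_Con 3 (-1.77) or PW_Con 3 (-1.55), nor in the linear model of the Ballgown type (-2.52, SE 1.01). In resveratrol litters the change was 0.52 (SE 0.42, limma adjusted p = 0.605), with overlapping groups, and the difference between both weaning effects was 2.85 (SE 1.05, limma adjusted p = 0.292). In PW_Res LEAP2 was 3.83-fold higher than in PW_Con (log2 fold change 1.94, SE 0.64, limma adjusted p = 0.404), though not by the standard without PW_Res 1 (1.77), with the distal marker covariate (1.50, limma adjusted p = 0.767) or in the linear model of the Ballgown type (2.33, SE 1.60). Without PW_Con 3 it met the standard at 1.17.

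LEAP2 tracked the sum of absorptive enterocyte markers (r = 0.85 over 12 libraries, 0.81 for deviations from group means). FABP1, APOA1, APOA4 and ANPEP held most of that sum in every library, so the correlation mainly describes them. SI, at 13.6 to 51.1 FPKM, added little to it. That sum was 11354, 30625 and 27508 FPKM in W_Con and 9663, 14848 and 4463 in PW_Con, so that PW_Con 3 was lowest in both. After weaning in control litters 4 of the 10 enterocyte markers tested fell, against 3.31% of 12611 names. Values were lower for 7 of the 10, and the median log2 fold change of all 10 was -0.90, against -0.02 for all names. CDHR5 was among those that were higher, at 165 to 174 FPKM in W_Con and 173 to 329 in PW_Con. In resveratrol litters none of the 10 met the standard. The genes most like LEAP2 were PGM1 (r = 0.92), ENTPD5 (r = 0.90) and SEC14L2 (r = 0.90). Proximal small intestine markers, of which 6 of 8 were matched, also went with LEAP2 (r = 0.78, and 0.55 for deviations from group means). Their sum was 183 to 2852 FPKM in W_Con, 46.4 to 91.0 in PW_Con, 177 to 1288 in W_Res and 347 to 1034 in PW_Res. All 6 had lower values after weaning in control litters (2 at the standard, against 3.31% of names, median log2 fold change -1.50). All 6 had higher values in PW_Res than in PW_Con (3 at the standard, against 1.81% of 12380 names, median 1.55). In that comparison the enterocyte markers had a median of 0.21, with 0 of 10 at the standard. The part of enterocyte content and of gut position in the LEAP2 results was not tested.

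REG3G, a C-type lectin that kills Gram-positive bacteria, had the widest range of all on the log2(FPKM + 1) scale. It was at 97.8, 0 and 33.8 FPKM in W_Con and at 1657, 8.59 and 1330 in PW_Con. In resveratrol litters the values were 45.3, 17.2 and 17.7 FPKM in W_Res and at 11.4, 11.5 and 44.7 in PW_Res. Only PW_Con 1 and PW_Con 3 exceeded 100 FPKM, while PW_Con 2 was the lowest of the libraries not listed at 0. The log2 fold change after weaning in control litters was 4.20 (SE 2.34, limma adjusted p = 0.395), the fifth largest in size of 12611 names, and it did not meet the standard. Without PW_Con 2 it was 6.62 (limma adjusted p = 0.251), and it then met it, whereas without W_Con 2, the library listed at 0, it was 2.24. For diet at 28 days REG3G was at -3.85 (SE 1.87, limma adjusted p = 0.527), at -6.27 without PW_Con 2 (limma adjusted p = 0.0761) and at -2.56 without PW_Con 1. REG3G and LEAP2 went in opposite directions over the libraries (r = -0.71), and REG3G was lower where enterocyte markers were higher (r = -0.76). The nearest gene to REG3G was CH242-64C23.1 (r = 0.90), followed by FAR1 (r = 0.87).

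LYZ, lysozyme, which cuts the peptidoglycan of bacterial walls, was at 428, 262 and 204 FPKM in W_Con and at 331, 181 and 766 in PW_Con. In resveratrol litters it was at 25.7, 244 and 13.6 FPKM in W_Res and at 92.7, 118 and 1003 in PW_Res. At 21 days W_Res 1 and W_Res 3 were far below every control-litter library, but W_Res 2 lay within the W_Con range. LYZ was 6.24-fold lower in W_Res than in W_Con (log2 fold change -2.64, SE 0.94, limma adjusted p = 0.351). It did not meet the standard without W_Con 1 (-2.35), W_Res 1 (-2.25) or W_Res 3 (-1.82). At 28 days the log2 fold change was -0.68 (SE 0.94), and -1.77 without PW_Res 3, which met the standard. Weaning gave 0.33 (SE 0.52) in control litters and 2.29 (SE 1.21, limma adjusted p = 0.443) in resveratrol litters, the latter 3.50 without W_Res 2 (limma adjusted p = 0.546), which met the standard. PITHD1 (r = 0.85) and HSD17B7 (r = 0.84) were the genes most like LYZ.

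LCN2, lipocalin 2, which binds bacterial siderophores and so withholds iron, was low. Its 4 rows summed to 0.585, 0.408 and 1.37 FPKM in W_Con and to 3.82, 0.315 and 3.75 in PW_Con. In resveratrol litters they summed to 2.18, 1.14 and 0.503 FPKM in W_Res and to 2.79, 1.99 and 2.22 in PW_Res. The highest values were those of PW_Con 1 and PW_Con 3, the same libraries that were high in REG3G (r = 0.68 between both genes). Averaged over both diets, its log2 fold change with weaning was 0.72 (SE 0.33, unadjusted P under 0.05, limma adjusted p = 0.258), under the 2-fold limit. Leaving out a library gave 0.57 to 1.04, with an unadjusted P above 0.05 in 9 of 12 such fits. An assembled row without an annotated transcript held 59.8% of the LCN2 sum, and the row with the annotated transcript held 22.0%. The assembled row was at 0 FPKM in W_Con 1, W_Con 2, W_Res 1, W_Res 2 and PW_Con 2, while the annotated row was at 0.210 to 0.346 FPKM in PW_Con and 0.259 to 0.413 in W_Con. Taken alone, the assembled row met the standard for the averaged weaning effect, at 1.23 (SE 0.32, limma adjusted p = 0.122). The neutrophil markers matched, 5 of 9, summed to 2.77 FPKM or less in every library.

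**Figure D3:**
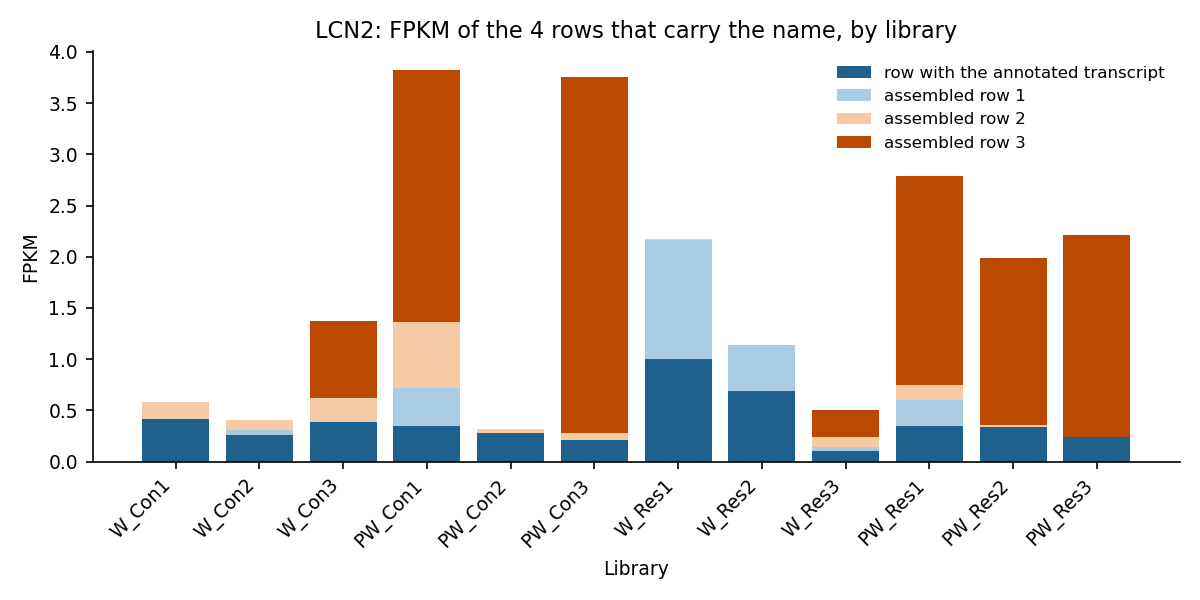
Stacked bars give the FPKM (y axis) of the 4 rows named LCN2 in each library (x axis), with a colour for each row. The third assembled row makes up most of the sum in PW_Con 1, PW_Con 3, the 3 PW_Res libraries, W_Con 3 and W_Res 3. The annotated row stays at or below 1.00 FPKM.

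DMBT1, a mucosal scavenger protein that aggregates bacteria, was at 319, 370 and 1405 FPKM in W_Con and at 1081, 125 and 1491 in PW_Con. Resveratrol litters had 692, 195 and 70.4 FPKM in W_Res and at 113, 1124 and 1731 in PW_Res. High and low libraries occurred in each group, and no comparison of DMBT1 met the standard. The log2 fold changes were 0.10 (SE 0.98) with weaning in control litters, 1.51 (SE 1.14) in resveratrol litters, -1.37 (SE 0.87) for diet at 21 days and 0.04 (SE 1.24) at 28 days. Within groups DMBT1 was lower where distal markers were higher (r = -0.73), and the genes nearest to it were MRPL24, ANXA2 and HSPA9 (r = 0.90, 0.90 and 0.89). Without W_Res 1 the diet effect at 21 days was -2.22 (limma adjusted p = 0.274), and without PW_Res 1 the weaning effect in resveratrol litters was 2.71 (limma adjusted p = 0.400), both past the standard.

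PIGR, the receptor that carries dimeric immunoglobulin A across the epithelium, was at 78.3, 82.1 and 133 FPKM in W_Con and at 89.5, 75.2 and 152 in PW_Con. Litters of resveratrol-fed sows gave 133, 207 and 28.7 FPKM in W_Res and at 27.1, 109 and 345 in PW_Res. The lowest values, in W_Res 3 and PW_Res 1, were those of the 2 resveratrol-litter libraries with high distal markers, and the highest, in PW_Res 3 and W_Res 2, were those of libraries with distal sums of 105 and 53.7 FPKM. Its log2 fold changes in the 4 comparisons lay between -0.03 and 0.12. Over 12 libraries PIGR correlated with distal markers at r = -0.71, and at -0.86 for deviations from group means. PIGR also went with DMBT1 (r = 0.72) and with LYZ (r = 0.61), and its nearest gene was EDEM2 (r = 0.91), which acts in the disposal of misfolded glycoproteins.

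With the genes counted together, 2 of the 8 met the standard after weaning in control litters, against 3.31% of 12611 names, and 1 of the 8 had groups that did not overlap, against 25.3% of names. In resveratrol litters 0 of the 8 met it, against 4.75% of 13013 names, and 1 had no overlap, against 21.8%. DUOX2 was that gene. For diet at 21 days 3 of the 8 met it, against 4.47% of 13186 names, and 2 had no overlap, against 21% of names. For diet at 28 days 3 met it, against 1.81% of 12380 names, and 4 had no overlap, against 17.3%. The weaning effect averaged over both diets gave 0 of 8 (1 with an unadjusted P under 0.05, against 19% of names), against 1.42% of 12886 names at the standard and 0.0776% with an adjusted p under 0.05. Its difference between diets gave 2 of 8, against 7.76%. The median log2 fold change of the 8 genes was 0.30 after weaning in control litters, where it was -0.02 for all names, and -1.06 for diet at 21 days and -0.79 at 28 days, where it was 0.09 and -0.07 for all names. The linear model of the Ballgown type, which has a library-size covariate and no moderation, gave 1, 0, 1 and 1 genes for the 4 comparisons of 2 groups, and it ended the calls of PLA2G2D at 21 days (-0.73) and of NOS2 and LEAP2 as given above. The count for weaning in control litters was 0 without W_Con 2 or W_Con 3.

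**Figure D4:**
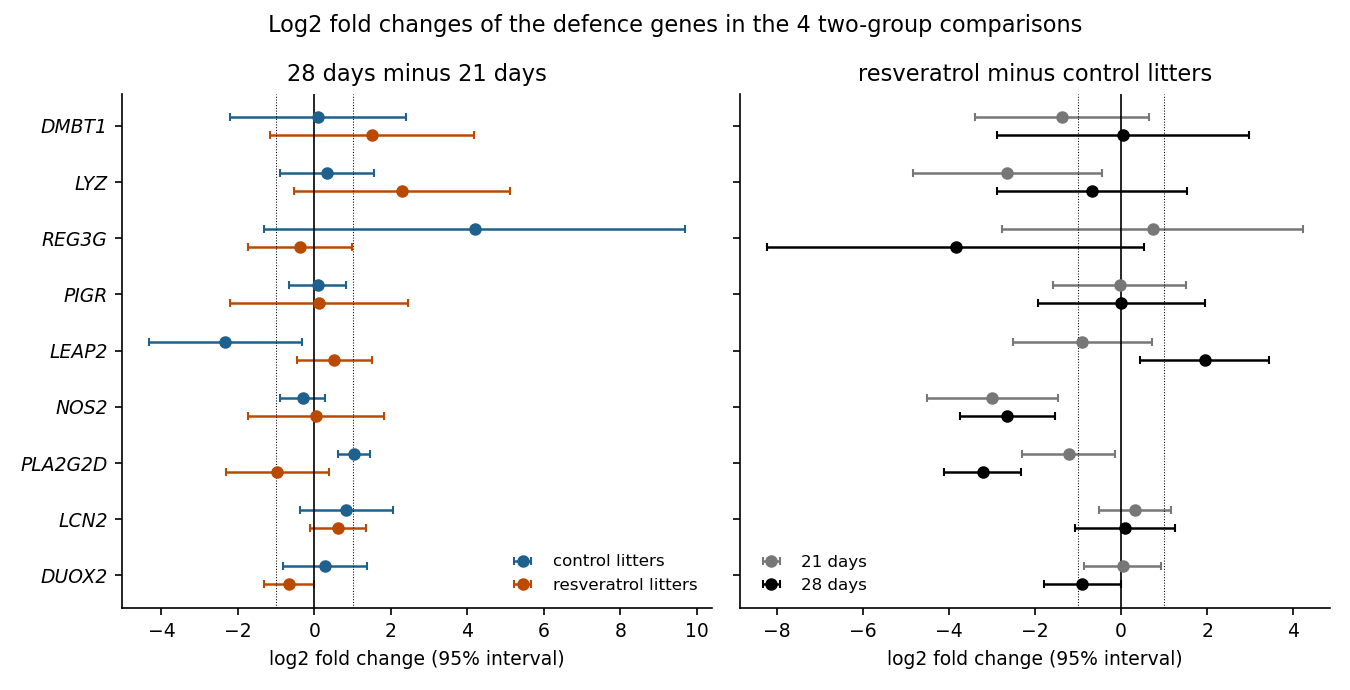
Points give log2 fold changes on the log2(FPKM + 1) scale (x axis) with 95% intervals for 9 genes (y axis), for 28 against 21 days in the litters of each diet (left) and for resveratrol against control litters at each age (right). Dotted lines mark -1 and 1. NOS2 and PLA2G2D lie below 0 at both ages in the right panel, and the REG3G interval is the widest in 3 of the 4 comparisons, weaning in resveratrol litters being the exception.

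Of 50 other secreted antimicrobial proteins on a fixed list, 27 were in the table and 17 were tested for weaning averaged over both diets. Of these, 1 rose and 1 fell at the standard, against 1.42% of all names called, and the list's median log2 fold change was -0.07 against -0.10 for all names. PGLYRP3, a peptidoglycan recognition protein, was at 0.00986 to 2.07 FPKM at 21 days and at 2.11 to 4.65 at 28 days, without overlap (log2 fold change 1.29, SE 0.24, limma adjusted p = 0.0629). LBP, which binds lipopolysaccharide, fell by 1.09 (SE 0.29, limma adjusted p = 0.115). RETNLB, a secreted protein of goblet cells, was at 84.6 to 180 FPKM at 21 days and at 52.9 to 98.9 at 28 days (-0.96, SE 0.19, limma adjusted p = 0.0629), just inside the 2-fold limit. For diet averaged over ages, 1 of the 17 fell and 0 rose, against 0.939% of all names called. There, 4 had higher and 1 had lower values with an unadjusted P under 0.05, against 12.3% of names. The list's median log2 fold change was 0.17, against 0.03 for all names. The gene that fell was GNLY, granulysin, a pore-forming protein of cytotoxic lymphocytes, named after its values were seen. It was at 55.0 to 123 FPKM in W_Con, 64.0 to 96.4 in PW_Con, 8.67 to 18.5 in W_Res and 6.71 to 33.1 in PW_Res (log2 fold change -2.38, SE 0.36, limma adjusted p = 0.0365).

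Among 15 tested enzymes and partners of reactive oxygen and nitric oxide production (19 of 23 listed were in the table), none met the standard for averaged weaning. DUOX1 and its maturation factor DUOXA1 were at -0.50 (SE 0.21, limma adjusted p = 0.233) and -0.59 (SE 0.24, limma adjusted p = 0.229). For averaged diet 1 of the 15 fell, against 0.939% of all names called. This was ASS1, which regenerates the arginine that nitric oxide synthases use (-1.77, SE 0.72, limma adjusted p = 0.377). ASS1 was at 441 FPKM in W_Res 3 and 403 in PW_Res 1, the resveratrol-litter libraries with high distal markers, at 30.9 to 88.2 in the other 4, and at 173 to 552 in control litters, so that the diets overlapped. DUOX1 was at 0.206 to 0.243 FPKM in PW_Res and at 0.577 to 2.31 in W_Res, without overlap, as for DUOX2. Of 22 tested cytokine and NF-kappaB signalling genes (29 of 36 in the table), none met the standard for averaged weaning, with a median of -0.07. An unadjusted P under 0.05 was reached by 5 with lower and 2 with higher values at 28 days, against 19% of 12886 names. NFKB1, a subunit of NF-kappaB, was at 3.68 to 6.80 FPKM at 21 days and at 2.01 to 3.99 at 28 days (-0.73, SE 0.17, limma adjusted p = 0.0868). JAK1, IL33 and IRF1 were at -0.81, -0.64 and -0.56, with limma adjusted p of 0.228, 0.207 and 0.217. NFKBIA, which encodes an inhibitor of NF-kappaB, was higher at 28 days, at 0.50 (SE 0.14, limma adjusted p = 0.131). IRF1, an interferon-induced transcription factor that drives NOS2 transcription, was the 1 gene of this list that met the standard for averaged diet, at -1.09 (SE 0.22, limma adjusted p = 0.124). It was at 28.4 to 48.1 FPKM in PW_Res and at 85.0 to 105 in PW_Con, without overlap. At 21 days the groups overlapped, at 49.6 to 112 FPKM in W_Res and 93.1 to 138 in W_Con, and the difference of -0.77 did not meet the standard.

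All 11 matched genes of immunoglobulin A transport and plasma cells, of 14 listed, were tested. After weaning in control litters 3 rose and none fell, against 3.31% of all names called, with a median log2 fold change of 0.44 against -0.02 for all names. In resveratrol litters none met the standard, with a median of 0.17. Averaged over both diets POU2AF1, a B cell coactivator, rose by 1.12 (SE 0.42, limma adjusted p = 0.201), a value to which PW_Con 2 contributed 22.2 FPKM against 0.698 to 5.07 in the other 11 libraries. DERL3, of the plasma cell's protein quality control, was at 0.80 (SE 0.25, limma adjusted p = 0.155), and TNFRSF17, a plasma cell survival receptor, at -0.48 (SE 0.19, limma adjusted p = 0.215). PLA2G2D was most like TNFRSF4 (r = 0.93), a costimulatory receptor of activated T cells, followed by CNOT2 (r = 0.90) and PUS3 (r = 0.89). The genes most like LCN2 were SLC35E4, OVOL1 and PICK1 (r = 0.87, 0.84 and 0.83).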

How the data were processed

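Per the paper's methods, the authors estimated FPKM per gene with StringTie and Ballgown. The submitters' processing notes list HISAT2 2.0, Bowtie 0.12.2, StringTie 1.3.0, Sscrofa10.2 and mm8, whereas the paper names TopHat. The deposited FPKM table has 41264 rows, of which 17650 without a gene name were left out, and 0 value columns were unmatched. It holds no counts, so no count model was used. FPKM of rows sharing a name were summed, and limma 3.58.1 (R 4.3.3, lmFit, eBayes with trend) was fitted to log2(FPKM + 1) over names with a mean of at least 0.5 FPKM, with Benjamini-Hochberg adjustment. Fits used the 6 libraries compared, or all 12 for averages and the difference. A fold change on this scale understates low genes. The method was tested on simulated data.

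The genes and lists were chosen with earlier results of these data known. Named were the listed genes, up to 4 names per fixed list with the largest averaged weaning change among those with P under 0.05, and the 3 names (mean of at least 1 FPKM) most correlated with each gene. GNLY, ASS1, NFKBIA and the cell type and position markers (FABP6, enterocyte, macrophage and lymphocyte markers) lie outside this rule. Added after the data were examined were the diet effect averaged over ages, the lymphocyte markers, and 3 alternatives (rows with an Ensembl transcript, the distal marker covariate, and leaving out W_Res 1 and W_Res 2). The records call the samples biological replicates, so P measures the spread between piglets. No sequence of these genes is shown.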

Additional observations from a re-analysis of the deposited data

Results flagged for a closer look

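For 2 of the 8 genes, against 7.76% of 12886 names, the weaning effect differed between the litters of both diets by a test of the difference itself, at the study's unadjusted standard. LEAP2 fell in control litters and did not in resveratrol litters, a difference of 2.85 on the log2 scale (SE 1.05, 95% interval 0.54 to 5.16, limma adjusted p = 0.292). PLA2G2D rose in control litters and had a log2 fold change of -0.97 in resveratrol litters, a difference of -2.00 (SE 0.66, 95% interval -3.45 to -0.55, limma adjusted p = 0.264). Over 24 alternative settings the difference stayed between 2.07 and 3.81 for LEAP2, past the standard in 21 (missed with the Ballgown-type model, 2.23, and without W_Con 3, 2.29, or W_Res 3, 2.36), and between -2.99 and -1.51 for PLA2G2D, past it in 24. Several marker lists moved in the same test. All 6 proximal small intestine markers had higher values for the difference (2 at the standard, median 1.49), 3 of 10 enterocyte markers met the standard upwards (median 0.84), and all 6 smooth muscle markers met it downwards (median -2.79). Of 7 B cell and follicle markers 6 had lower values, 2 at the standard (median -1.59). Their part in the LEAP2 and PLA2G2D results was not tested. Without W_Res 1 and W_Res 2, the libraries high in smooth muscle markers, the difference was 3.81 for LEAP2 and -2.99 for PLA2G2D, with W_Res 3 as the lone library of its group and the spread taken from the other groups.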

How the results depend on the processing

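No direction reversed in the 330 recomputed values of results with an unadjusted P under 0.05. Of these, 285 kept their side of the standard, 39 lost it and 6, all of DUOX2 and LCN2, which were short of 2-fold, gained it. Of the counts of 8 genes at the standard, the linear model of the Ballgown type gave 1 for weaning in control litters, 1 for diet at 21 days, 1 for diet at 28 days and 1 for the difference. With the distal covariate, weaning gave 1 in control litters, 1 in resveratrol litters and 2 averaged. Without W_Res 1 and W_Res 2, which leaves W_Res 3 alone in its group and assumes that it varies like the others, the counts were 3 for weaning in resveratrol litters, 1 for diet at 21 days and 1 for averaged weaning. In resveratrol litters, a pseudocount of 0.1 gave 1 and the row with the highest mean gave 1, as it did (1) for averaged weaning. The cause of these shifts was not tested.

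Leaving out a replicate gave 0 to 3 genes for weaning in control litters (0 without W_Con 2 or W_Con 3, 3 without PW_Con 2), 0 to 2 in resveratrol litters (2 without W_Res 2), 2 to 3 for diet at 21 days, 2 to 5 at 28 days (2 without PW_Res 1, 5 without PW_Con 2), 0 to 3 for averaged weaning (3 without PW_Con 2), 1 to 3 for the difference (1 without W_Con 3 or W_Res 3) and 2 to 4 for averaged diet.

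No pairing by replicate number was seen: correlations of deviations by number ran from -0.257 to 0.109. With 3 libraries per group this cannot settle whether the numbers pair the samples. Per the paper, piglets of both ages were taken from the same litters, so W_Con and PW_Con may share litters that the main fits do not pair. With a replicate block the counts were 3 and 0 for weaning in control and resveratrol litters, 3 and 4 for diet at 21 and 28 days, 0 averaged, 3 for the difference and 2 for averaged diet. FPKM without counts leaves the error of low genes such as DUOX2 and LCN2 unknown.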
